A study of Saccharomyces cerevisiae with 4 samples.

Results

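The genes described here are 46 enzyme genes of amino acid synthesis in the budding yeast Saccharomyces cerevisiae, together with GCN4. The enzymes belong to histidine, lysine, arginine, branched-chain (leucine, isoleucine, valine), aromatic and threonine synthesis. GCN4 encodes a transcriptional activator of many amino acid synthesis genes. The genes described were chosen by a fixed list of standard gene names. HIS3 and LEU2, 2 genes of the same pathways, were left out because they are deleted in the strain background. All 47 were among the 6256 genes of the array, and all 47 were among the 5343 that passed the signal filter. Transcripts were measured with 2-colour oligonucleotide arrays, in which 2 RNAs labelled with the dyes Cy5 and Cy3 compete for the same probes, so that each array gives a ratio and not a level. The series sets the ERG12 DAmP mutant, whose allele lowers the transcript's amount through a disruption at its 3' end, beside its parental strain BY4741. ERG12 encodes mevalonate kinase of the sterol and isoprenoid pathway, and the mutant kept 10% of the parental activity per the labels. BY4741 carries deletions of HIS3, LEU2, MET15 (MET17) and URA3.

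There were 4 comparisons, each on 2 arrays of biological replicates per the labels, with no dye swap. They were mutant in glycerol over mutant in glucose, parental in glycerol over parental in glucose, mutant over parental in glycerol, and mutant over parental in glucose, with the RNA named before "over" in Cy5. Both strains were grown in complete synthetic medium with glucose, washed and moved to the same medium with glycerol or glucose at 20 g/L. What followed is described in conflicting ways. One label has the cells collected after 1 h in the second medium, another has them grown on until the optical density had passed 0.1 and reached 0.5, and another adds 1 h in YPD, a rich medium, at pH 2.5. The RNA came from whole cultures, in which fewer cells with a transcript and less of it per cell cannot be told apart.

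Yeast makes every amino acid it needs from a few intermediates of central metabolism. When an amino acid runs short, uncharged tRNA activates the kinase Gcn2, general translation slows and the GCN4 transcript is translated more, because short reading frames in its leader no longer hold ribosomes back. Gcn4 protein then binds the promoters of many amino acid synthesis genes, a response called general amino acid control. The level of the GCN4 transcript itself is therefore a poor measure of Gcn4 activity. Most pathways also have a controlled enzyme at the first step, in some of them present as a pair of isoenzymes.

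The median signal of a channel lay between 133.25 and 742.75 intensity units, and 4917 to 5499 genes were well above background per channel. Replicate arrays correlated across genes with r = 0.898 for the glycerol response of the mutant, 0.953 for that of the parental strain, 0.511 for the strains in glycerol and 0.716 for the strains in glucose. All 47 genes were measurable: 44 were well above background on all 16 channels, and ARG8, ARO7 and GCN4 were so on 15. No gene spot was saturated. ERG12 itself passed the background test in 1 of 8 channels of the mutant and 5 of 8 of the parental strain, so no ratio is given for it. HIS3 and LEU2 were well above background in 0 of 8 channels of either strain. URA3 was so in 8 of 8 channels of the mutant and 3 of 8 of the parental strain, and in 0 of the 4 parental channels on arrays that held no mutant RNA. MET17 was well above background in 8 of 8 channels of each strain, which goes against the deletion known for BY4741. All 8 arrays lay on 1 slide, where a comparison filled a whole column, so an effect of the column and one of the comparison cannot be told apart.

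The comparison of glycerol with glucose asks how each strain's transcripts differ between a carbon source that must be respired and one that is fermented. Most amino acid synthesis genes were lower in glycerol in both strains. In the mutant 34 of the 47 fell, 2 rose and 11 did not pass the test, against 21.9% of all tested genes that fell and 24.7% that rose (46.6% called in all). In the parental strain 40 fell, 2 rose and 5 did not pass, against 30.5% of all tested genes that fell and 31.4% that rose (62% called in all). The median log2 ratio of the 47 was -0.88 in the mutant and -1.38 in the parental strain, where -1 is a level 2 times lower and the medians of all tested genes were 0.02 and -0.01. Among the genes that fell, 19 were at least 2 times lower in the mutant and 36 in the parental strain. Of all 5343 tested genes, 288 in the mutant and 496 in the parental strain fell this far. Of the 47, 33 fell in both strains, and LEU4 and BAT2 rose in both. Among all tested genes at most 21.9% fell in both and at most 24.7% rose in both, the shares in the mutant alone. LYS20, LYS21, ARG3, ARG8, LEU1, ILV5 and TRP2 fell in the parental strain and did not pass in the mutant, CPA1 fell in the mutant and did not pass in the parental strain, and HIS6, ARO7, HOM6 and GCN4 passed in neither. Calls are at a Benjamini-Hochberg adjusted p under 0.05 in limma over all 5343 genes, with 2 arrays per comparison.

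Higher and lower here mean higher and lower than the average gene of an array. Centred on the spike-in transcripts instead, the median of all genes moved to 0.19 in the mutant and to -0.92 in the parental response, and the medians of the 47 to -0.71 and -2.30. With that centring 24 of the 47 fell and 2 rose in the mutant, and 45 fell and 1 rose in the parental strain. Among all tested genes 1356 were then called in the mutant, 964 of them higher. In the parental strain 3972 were called and only 370 of them were higher, so most calls there were falls in any case.

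**Figure D1:**
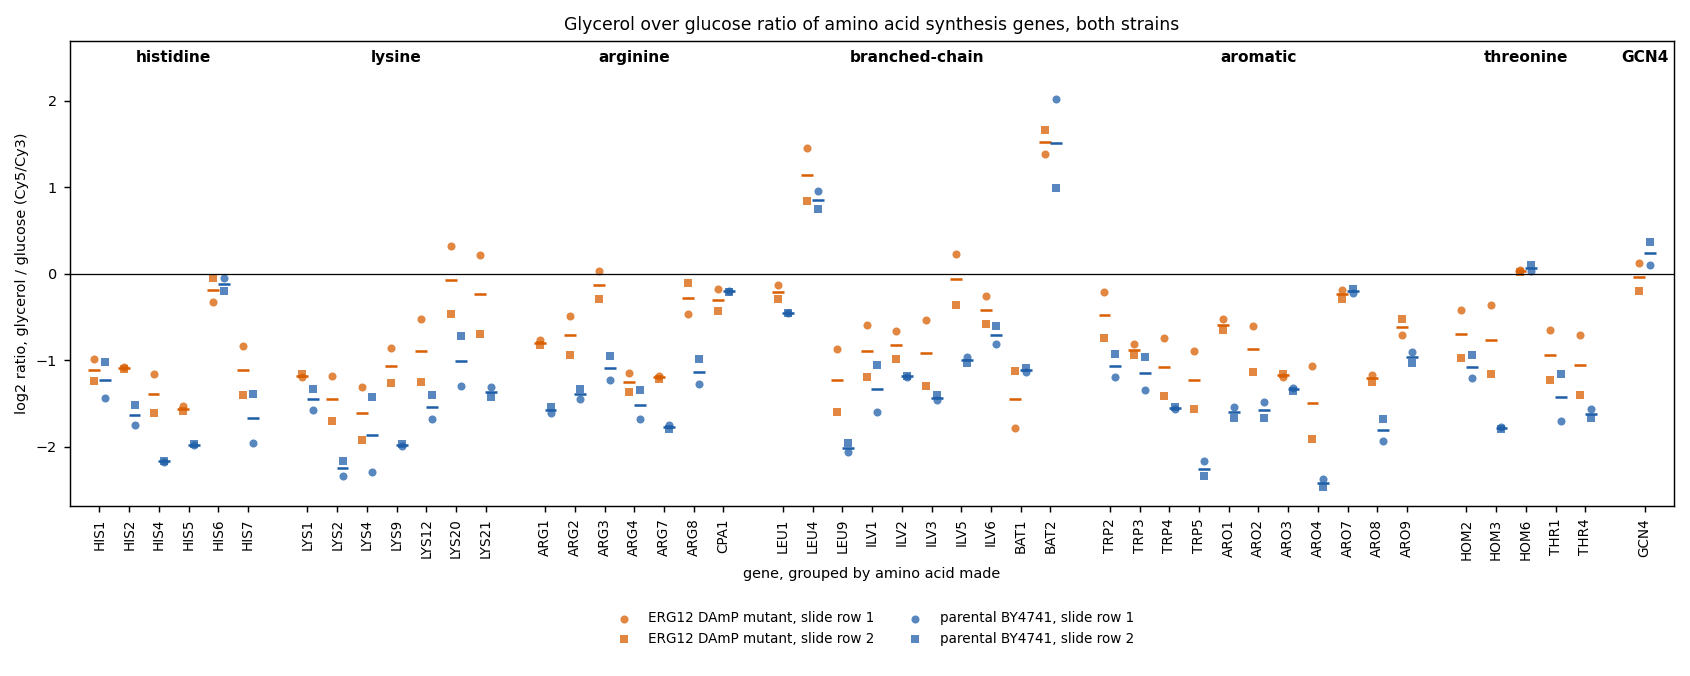
Log2 ratio of glycerol over glucose for each of the 47 genes on each array (circles, slide row 1; squares, slide row 2; bars, mean of 2 arrays), with the mutant in orange left of the parental strain in blue. Most genes lie below 0 in both strains with the mutant nearer 0 (medians -0.88 and -1.38). LEU4, BAT2 and, close to 0, HOM6 lie above 0 on every array, and GCN4 does so on both parental arrays.

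GCN4 itself passed the test in neither strain. Its log2 ratio of glycerol over glucose was 0.12 and -0.20 on the mutant arrays, against 0.11 and 0.37 on the parental arrays. The 2 mutant arrays lay on either side of 0, and the strains overlapped. The means were -0.04 ± 0.15 in the mutant (SE, adjusted p = 0.834) and 0.24 ± 0.15 in the parental strain (adjusted p = 0.191). Between strains, GCN4 was at 0.30 and -0.09 in glycerol and at 0.33 and 0.64 in glucose, and neither passed (adjusted p = 0.746 and 0.0872). The GCN2 transcript, of the kinase upstream, was also near 0, with -0.02 ± 0.11 in the mutant and 0.11 ± 0.11 in the parental strain.

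Histidine is made from phosphoribosyl pyrophosphate and ATP in a single unbranched route. In both strains 5 of the 6 histidine genes fell, with a group median of -1.11 in the mutant and -1.65 in the parental strain. HIS4, which encodes a multifunctional enzyme that includes the final dehydrogenase, had log2 ratios of -1.16 and -1.61 in the mutant, against -2.17 and -2.16 in the parental strain. HIS5, the histidinol-phosphate aminotransferase, had -1.53 and -1.59 in the mutant, against -1.98 and -1.97 in the parental strain. For both genes each mutant array lay above each parental array, so the fall was smaller on both mutant arrays. HIS4 had the lowest parental ratio of the group, a level 4.48 times lower in glycerol, against 2.61 times lower in the mutant. HIS2, the histidinol phosphatase, had -1.08 and -1.10 in the mutant and -1.75 and -1.52 in the parental strain. HIS1, the enzyme of the first step, and HIS7, the imidazole glycerol phosphate synthase, fell in both strains with overlapping arrays. HIS6, the isomerase in the middle of the route, was the exception. It had -0.33 and -0.05 in the mutant and -0.04 and -0.20 in the parental strain, all close to 0, and passed in neither (adjusted p = 0.321 and 0.496). The called histidine genes had adjusted p between 8.64e-05 and 0.00166 in the mutant and between 6.14e-06 and 0.000367 in the parental strain.

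Lysine is made in yeast from 2-oxoglutarate through aminoadipate. All 7 lysine genes fell in the parental strain (median -1.53), and 5 fell in the mutant (median -1.07). LYS2, the aminoadipate reductase, had log2 ratios of -1.19 and -1.70 in the mutant, against -2.34 and -2.16 in the parental strain. It was 2.72 times lower in glycerol in the mutant and 4.76 times lower in the parental strain, and the arrays of the strains did not overlap. LYS4, the mitochondrial homoaconitase, had -1.31 and -1.92 in the mutant, the lowest mean of all 47 genes there (-1.61 ± 0.24), against -2.29 and -1.43 in the parental strain. The arrays of the strains overlapped. LYS1 and LYS9, the saccharopine dehydrogenases, and LYS12, the homoisocitrate dehydrogenase, had means between -1.18 and -0.89 in the mutant and between -1.98 and -1.45 in the parental strain. The call for LYS12 in the mutant was lost without the array of slide row 2 (-0.53, adjusted p = 0.133).

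The lysine genes that did not pass in the mutant were both homocitrate synthases, the isoenzymes of the first step. LYS20 had 0.32 and -0.47 in the mutant, against -1.29 and -0.72 in the parental strain. LYS21 had 0.22 and -0.69 in the mutant, against -1.30 and -1.43 in the parental strain. For each isoenzyme the mutant arrays lay on either side of 0 and above both parental arrays. The mutant means were -0.07 ± 0.24 for LYS20 and -0.24 ± 0.26 for LYS21 (adjusted p = 0.819 and 0.483), and the parental means were -1.01 ± 0.24 and -1.36 ± 0.26 (adjusted p = 0.00628 and 0.00224). The parental call for LYS20 was lost without the array of slide row 1 (-0.72, adjusted p = 0.127). Whether the probes of these near-identical genes share signal was not tested.

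Arginine is made from glutamate through acetylated intermediates in mitochondria and then from ornithine in the cytosol. Of its 7 genes 5 fell in the mutant (median -0.71) and 6 in the parental strain (median -1.38). ARG7, the ornithine acetyltransferase of the mitochondrial branch, had log2 ratios of -1.18 and -1.22 in the mutant, against -1.74 and -1.80 in the parental strain. ARG1, the argininosuccinate synthetase, had -0.77 and -0.82 in the mutant, against -1.61 and -1.54 in the parental strain. Neither gene's strains overlapped, and replicate arrays differed by less than 0.1 for both. ARG4, the lyase of the last step, had -1.14 and -1.36 in the mutant and -1.67 and -1.35 in the parental strain, which overlapped. ARG3, the ornithine carbamoyltransferase that joins the branches, had 0.03 and -0.29 in the mutant, against -1.23 and -0.95 in the parental strain. It was close to 0 on the mutant arrays and 2.12 times lower in glycerol in the parental strain (adjusted p = 0.470 and 0.000278). ARG8, the acetylornithine aminotransferase, had means of -0.28 ± 0.19 in the mutant and -1.13 ± 0.19 in the parental strain (adjusted p = 0.259 and 0.00118). ARG2, the acetylglutamate synthase of the first step, fell in both strains (-0.71 ± 0.16 in the mutant and -1.38 ± 0.16 in the parental strain), with the mutant call lost without the array of slide row 2 (-0.49, adjusted p = 0.127). CPA1, the small subunit of the arginine-specific carbamoyl phosphate synthetase, had -0.18 and -0.43 in the mutant and -0.20 and -0.21 in the parental strain. Its mutant mean of -0.30 ± 0.10 only just passed (adjusted p = 0.0412) and did not pass when any 1 of the 8 arrays was left out.

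Leucine, isoleucine and valine share several mitochondrial enzymes, and this was the group with genes that moved both ways. Of its 10 genes 6 fell and 2 rose in the mutant (median -0.62), and 8 fell and 2 rose in the parental strain (median -1.05). The enzymes shared by isoleucine and valine synthesis were ILV2 and ILV6, the catalytic and regulatory subunits of acetolactate synthase, ILV5, the reductoisomerase, and ILV3, the dehydratase. ILV2, ILV3 and ILV6 fell in both strains, with means between -0.91 and -0.41 in the mutant and between -1.43 and -0.70 in the parental strain. So did ILV1, the threonine deaminase that opens the isoleucine branch, with -0.89 ± 0.21 in the mutant and -1.33 ± 0.21 in the parental strain. The mutant calls of ILV1, ILV3 and ILV6 were each lost without the array of slide row 2. ILV5 had 0.23 and -0.36 in the mutant, against -0.97 and -1.03 in the parental strain. Its mutant arrays lay on either side of 0 and both lay well above the parental arrays. LEU1, the isopropylmalate isomerase, had -0.12 and -0.29 in the mutant (adjusted p = 0.113) and -0.46 and -0.45 in the parental strain (adjusted p = 0.00397).

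The isoenzymes of the first step to leucine moved in opposite directions. LEU4, the major isopropylmalate synthase, had log2 ratios of 1.45 and 0.84 in the mutant and 0.95 and 0.75 in the parental strain. LEU9, its paralog, had -0.86 and -1.60 in the mutant, against -2.06 and -1.96 in the parental strain. LEU4 was above 0 and LEU9 below 0 on all 4 arrays. LEU4 was 2.22 times higher in glycerol in the mutant and 1.81 times higher in the parental strain (adjusted p = 0.00274 and 0.00758), while LEU9 was 2.35 and 4.02 times lower (adjusted p = 0.00147 and 6.40e-05). The parental rise of LEU4 is the least secure of these. It was lost without the array of slide row 1 (0.75, adjusted p = 0.102), its mean was -0.061 when arrays were centred on the spike-in transcripts, and LEU4 stood at 0.09 for the mutant and -0.14 for the parental strain in the authors' deposited table.

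The branched-chain aminotransferases, which add the amino group in synthesis and remove it in breakdown, showed the same split. BAT2, the cytosolic form, had log2 ratios of 1.39 and 1.66 in the mutant and 2.02 and 1.00 in the parental strain. BAT1, the mitochondrial form, had -1.78 and -1.12 in the mutant and -1.13 and -1.09 in the parental strain. BAT2 was 2.87 times higher in glycerol in the mutant and 2.84 times higher in the parental strain, the highest mean of the 47 genes in each. BAT1 was 2.73 and 2.16 times lower. For neither aminotransferase did both mutant arrays lie on one side of both parental arrays.

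**Figure D2:**
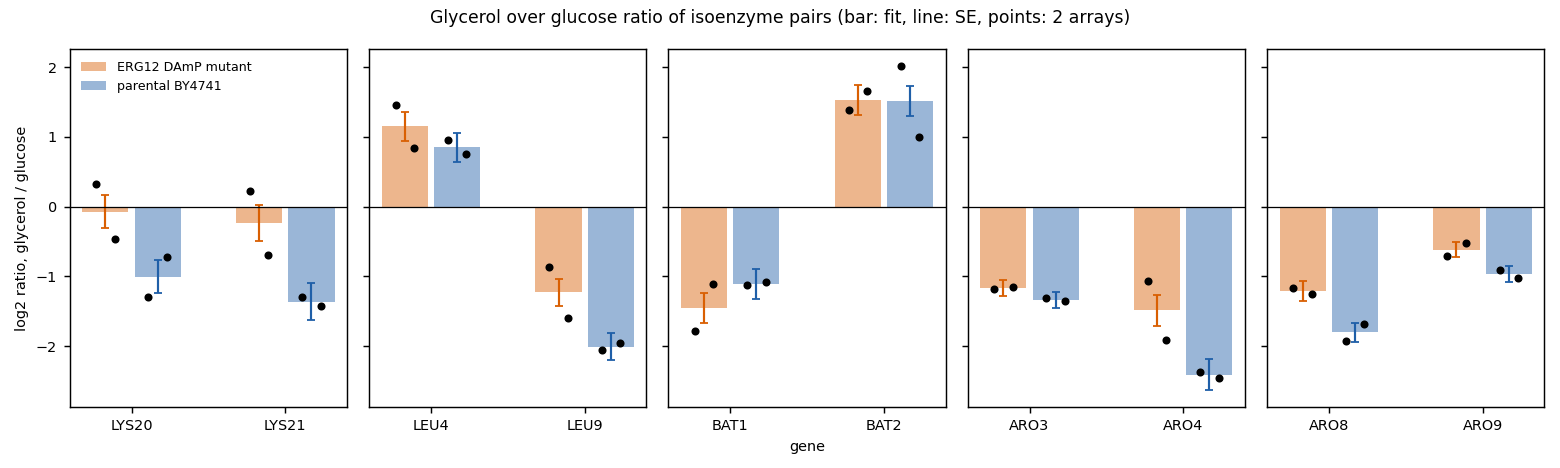
Log2 ratio of glycerol over glucose for 5 isoenzyme pairs (bars, fitted mean; lines, SE; points, the 2 arrays), mutant in orange left of parental in blue. LEU4 and BAT2 are above 0 while their partners LEU9 and BAT1 are below 0, and LYS20 and LYS21 are near 0 in the mutant only as means (-0.07 and -0.24), with 1 array on each side.

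The aromatic amino acids are made through the shikimate pathway to chorismate, from which tryptophan branches off on one side and phenylalanine and tyrosine on the other. Of 11 genes 9 fell in the mutant (median -0.88) and 10 in the parental strain (median -1.56). The first step is catalysed by a pair of DAHP synthases, ARO3, inhibited by phenylalanine, and ARO4, inhibited by tyrosine. ARO4 had log2 ratios of -1.07 and -1.91 in the mutant, against -2.37 and -2.46 in the parental strain. ARO3 had -1.19 and -1.16 in the mutant, against -1.32 and -1.36 in the parental strain. Both fell in both strains. ARO4 had the lowest parental mean of the 47 genes, 5.33 times lower in glycerol, against 2.81 times lower in the mutant, while ARO3 was 2.52 times lower in the parental strain and 2.26 times lower in the mutant.

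ARO1, the multifunctional enzyme that carries the middle of the shikimate pathway, had log2 ratios of -0.52 and -0.65 in the mutant, against -1.54 and -1.66 in the parental strain. ARO2, the chorismate synthase, had -0.60 and -1.14 in the mutant, against -1.48 and -1.67 in the parental strain. Neither gene's strains overlapped, and ARO1 had a gap between strains about as wide on both slide rows. ARO7, the chorismate mutase that leads to phenylalanine and tyrosine, had -0.18 and -0.29 in the mutant and -0.22 and -0.18 in the parental strain, and passed in neither (adjusted p = 0.0806 and 0.113). On the tryptophan side, TRP5, the tryptophan synthase, had -0.90 and -1.56 in the mutant, against -2.16 and -2.34 in the parental strain. TRP3 and TRP4 fell in both strains, with means of -0.88 and -1.08 in the mutant and -1.15 and -1.56 in the parental strain. TRP2, the anthranilate synthase that opens the branch, had a mean of -0.48 ± 0.19 in the mutant and -1.06 ± 0.19 in the parental strain (adjusted p = 0.0674 and 0.00150).

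The aromatic aminotransferases ARO8 and ARO9 both fell in both strains. ARO8, the form mainly assigned to synthesis, had -1.17 and -1.25 in the mutant, against -1.93 and -1.68 in the parental strain. ARO9, the form induced by aromatic amino acids and assigned mainly to breakdown, had -0.71 and -0.52 in the mutant, against -0.90 and -1.03 in the parental strain. In both genes the mutant arrays lay above the parental arrays, and the fall of ARO8 was the deeper within each strain.

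Threonine is made from aspartate through homoserine, a route whose upper part also feeds methionine. Of 5 genes 4 fell in the mutant (median -0.76) and 4 in the parental strain (median -1.43). HOM3, the aspartate kinase of the first step, had log2 ratios of -0.36 and -1.16 in the mutant, against -1.78 and -1.79 in the parental strain. THR4, the threonine synthase of the last step, had -0.71 and -1.41 in the mutant, against -1.57 and -1.66 in the parental strain. The mutant arrays of both genes were far apart but lay above the parental ones. The mutant fall of HOM3 passed at an adjusted p of 0.0273 and was lost in 3 of 8 cases of 1 array left out: without the mutant response array of slide row 2 (-0.36, adjusted p = 0.352) and without either parental response array (adjusted p = 0.0507 each). HOM6, the homoserine dehydrogenase in the middle of the route, had 0.04 and 0.03 in the mutant and 0.03 and 0.10 in the parental strain. It stayed within about 0.1 of 0 on all 4 arrays. HOM2 and THR1, the aspartate semialdehyde dehydrogenase and the homoserine kinase, fell in both strains, with means of -0.70 and -0.94 in the mutant and -1.07 and -1.43 in the parental strain. The mutant calls of HOM2 and THR1 were also lost without the array of slide row 2.

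The enzymes were also grouped by their place in the cell and in the pathway. Of the 13 enzymes placed in mitochondria by textbook knowledge 10 fell and 1 rose in the mutant (median -0.89), and 12 fell and 1 rose in the parental strain (median -1.33). Of 31 cytosolic enzymes 24 fell and 1 rose in the mutant (median -0.94), and 26 fell and 1 rose in the parental strain (median -1.51). The 2 enzymes placed in the nucleus, LYS20 and LYS21, passed in the parental strain only (medians -0.16 in the mutant and -1.18 in the parental strain). Among all tested genes 21.9% fell and 24.7% rose in the mutant, and 30.5% fell and 31.4% rose in the parental strain. The 7 enzymes of first steps outside the aromatic pathway had medians of -0.71 in the mutant and -1.36 in the parental strain. No test was run between these groups.

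The mutant's ratio was nearer 0 in most of the genes that fell, and the next comparison asks whether the strains' responses differ. The difference, mutant minus parental log2 ratio, had a median of 0.52 over the 47 genes and was above 0 in 41, while the median of all tested genes was 0.01. Only ARO1 passed the test, with a difference of 1.01 ± 0.15 (SE, adjusted p = 0.0266), as 1 of 47 beside 0.861% of all tested genes that passed in this direction. None passed in the other direction, beside 1.01% of all genes (1.87% called in all). At an unadjusted p under 0.05 there were 20 of the 47, all with the mutant higher, and 9.92% of all tested genes did so. Centred on the spike-in transcripts, which put the median difference of all genes at 1.09, 45 of the 47 passed. So did 4120 of all 5343 tested genes, all with the mutant higher. Next by p after ARO1 came ARG3 (0.96 ± 0.20, adjusted p = 0.0555), ILV5 (0.93 ± 0.20, adjusted p = 0.0593) and ARG1 (0.78 ± 0.17, adjusted p = 0.0602), and the widest gap, in LYS21, came with a wide error (1.13 ± 0.37, adjusted p = 0.135).

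Both mutant arrays lay above both parental arrays in 32 of the 47 genes, beside 25.9% of all tested genes, and below them in 0, beside 23.9%. The 15 genes that overlapped were HIS1, HIS6, HIS7, LYS4, ARG4, CPA1, LEU4, ILV1, BAT1, BAT2, ARO7, HOM2, HOM6, THR1 and GCN4. By amino acid the median difference was 0.81 for lysine, 0.67 for arginine, 0.58 for aromatic, 0.49 for threonine, 0.48 for histidine and 0.33 for branched-chain genes, and the order of these groups was not tested. A smaller response in the mutant was not particular to amino acid synthesis. Of all 1631 genes that fell in the parental strain, 83.6% had a difference above 0, with a median of 0.25, and for the 40 of them described here it was 39 genes and a median of 0.56. The parental arrays that chose these genes also enter the difference. The strain comparison arrays did not choose these genes, but whether they shared RNA extracts with the arrays that did is not stated. From the strain comparison arrays the medians were 0.23 for the 1631 genes and 0.50 for the 40.

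The strain comparisons give a second estimate of the same difference from 4 other arrays, as the mutant over parental ratio in glycerol minus that in glucose. Its median over the 47 genes was 0.39, and it was above 0 in 40. For ARO1 it was 0.85 ± 0.15 (adjusted p = 0.0775), for LYS21 1.15 ± 0.37 and for ARG3 1.02 ± 0.20. ILV5 was lower by this estimate, at 0.31 ± 0.20, and HIS5, ARO3 and BAT2 turned below 0, at -0.13 ± 0.20, -0.35 ± 0.16 and -0.30 ± 0.30. This estimate called 0 of the 47 genes in limma and 1 of the 5343 genes. At an unadjusted p under 0.05 in limma there were 13 of the 47, all higher, beside 10.5% of all tested genes in that direction. Glycerol arrays lay above glucose arrays without overlap in 29 of the 47, beside 29.6% of all genes, and 25 met the condition in both sets of arrays, beside 18% of all genes.

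**Figure D3:**
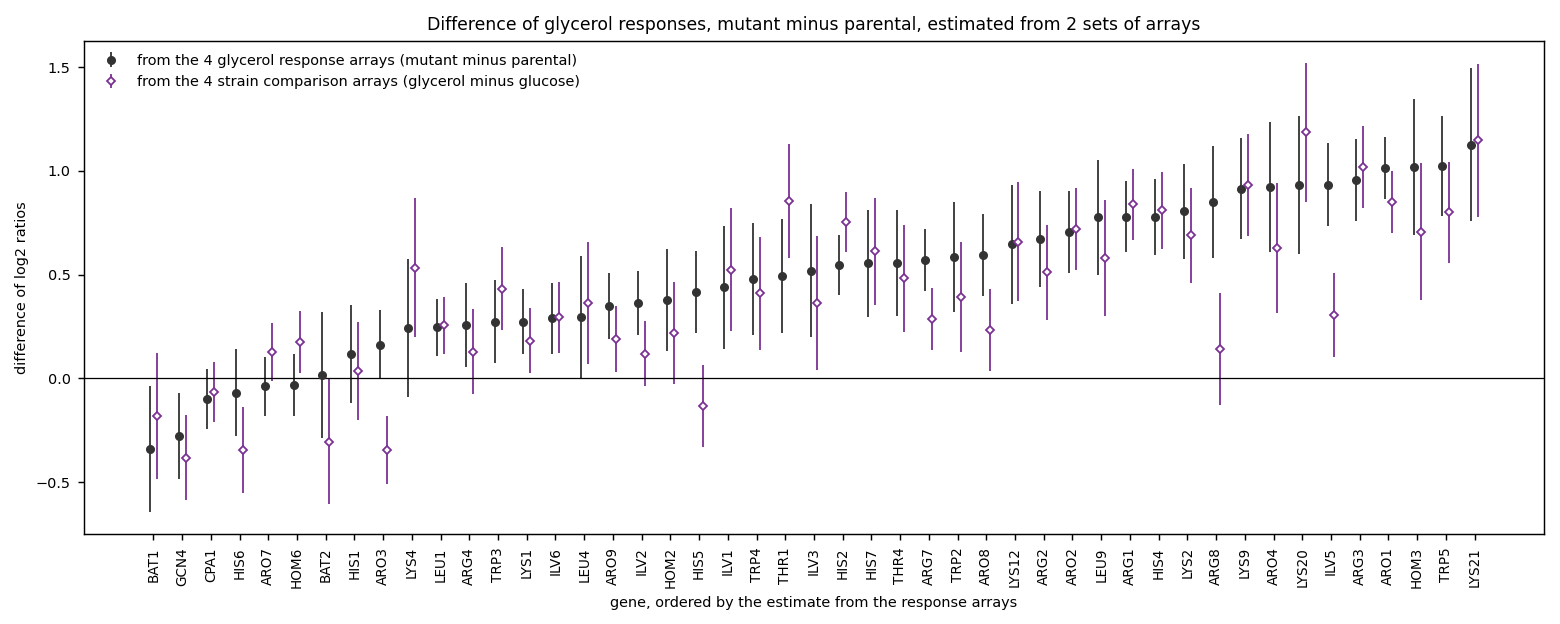
Difference of the glycerol responses for each of the 47 genes, as mutant minus parental log2 ratio, from the 4 response arrays (filled circles) and from the 4 strain comparison arrays (open diamonds), with SE. In 41 and 40 of the genes the estimates lie above 0, with ARO1 at 1.01 and 0.85.

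The size of the difference varied with the slide row of the arrays. Over the 47 genes its median was 0.83 on slide row 1 and 0.20 on slide row 2 of the response arrays, and 0.82 and 0.10 on the strain comparison arrays. It was above 0 in 44 and 35 genes on the response arrays and in 40 and 32 on the strain comparison arrays. ARO1 was an exception, with 1.01 on each row of the response arrays and 0.98 and 0.72 on the rows of the strain comparison arrays. Of the 47 genes 40 were higher on row 1 than on row 2 in the mutant response (median gap, row 1 minus row 2, 0.33), and 15 were so in the parental response (median gap -0.07). In the strain ratio in glycerol 40 were higher on row 1 (median gap 0.35), and in the strain ratio in glucose 10 were (median gap -0.24). Across 5343 genes, which are not independent replicates, the row deviations of the mutant response correlated with those of the strain ratio in glycerol with r = 0.763 and with those of the strain ratio in glucose with r = -0.449. Whether these arrays shared RNA extracts is not stated. The call of ARO1 was lost when either parental response array, the mutant response array of row 1 or either strain array in glucose was left out (adjusted p between 0.0652 and 0.169).

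**Figure D4:**
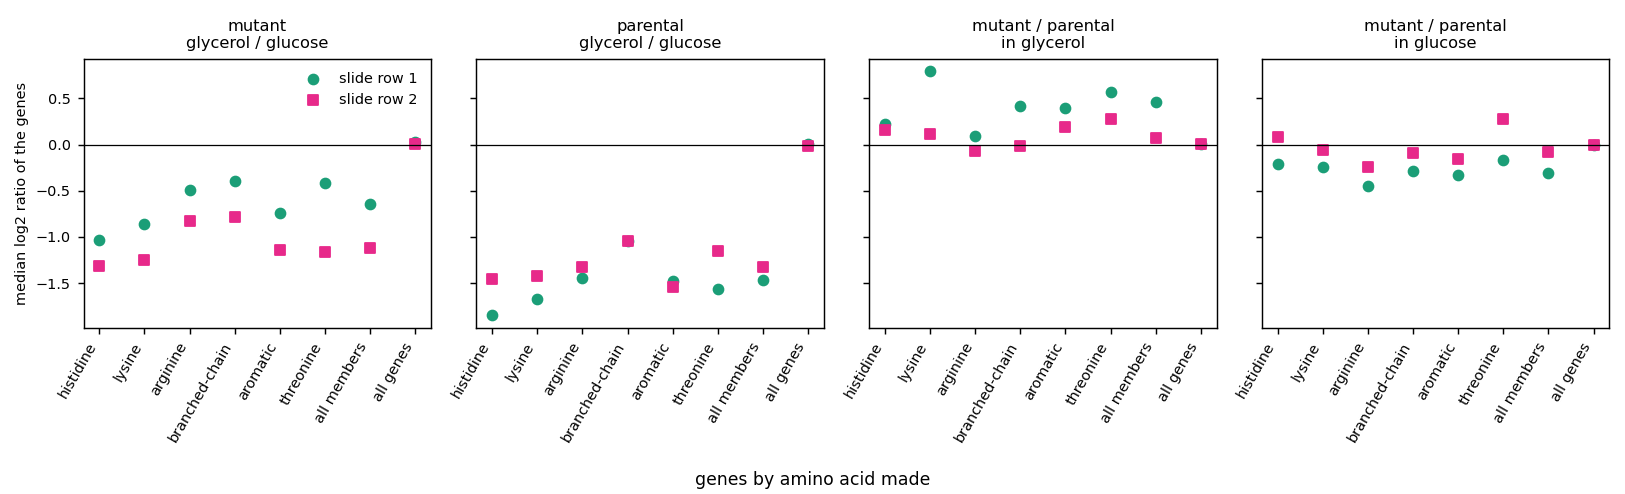
Median log2 ratio of the genes of each amino acid on each array (circles, slide row 1; squares, slide row 2), with all 47 genes and all 5343 tested genes at the right of each panel. On slide rows 1 and 2 the medians of the 47 genes were -0.65 and -1.12 in the mutant response, and 0.46 and 0.07 between strains in glycerol.

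Set directly against each other in glycerol, the strains differed in few of these genes. In the mutant 5 of the 47 were higher than in the parental strain, beside 3.24% of all tested genes, and 0 were lower, beside 0.88% (4.12% called in all). Centred on the spike-in transcripts, which put the median of all genes at 0.81, 41 of the 47 were higher and 0 lower. With that centring 4571 of all 5343 tested genes were higher. At an unadjusted p under 0.05 in limma 21 of the 47 differed in either direction, beside 1081 (20.2%) of all 5343 tested genes. The median was 0.25. LYS2 had log2 ratios of 1.42 and 0.88, a mean of 1.15 ± 0.16 or 2.23 times higher in the mutant (adjusted p = 0.00968). HIS4 had 0.99 and 0.72, a mean of 0.85 ± 0.13 or 1.81 times higher (adjusted p = 0.0125). ILV5 had 0.76 and 0.73 (0.74 ± 0.14, adjusted p = 0.0287). LYS20 and ARO2 passed by less, LYS20 with 1.45 and 0.75 (1.10 ± 0.24, adjusted p = 0.0426) and ARO2 with 0.70 and 0.55 (0.63 ± 0.14, adjusted p = 0.0483). All of these were above 0 on both arrays. LYS20, ARO2 and ILV5 each kept the call in only 2 of 8 cases of 1 array left out (adjusted p up to 0.488, 0.449 and 0.272), LYS2 and HIS4 in 7 of 8. With slide row as a replicate block LYS20 also lost it (adjusted p = 0.0629). All 7 lysine genes and all 5 threonine genes had means above 0, among them LYS21 with 1.39 and 0.35 and HOM3 with 1.19 and 0.57, which did not pass (adjusted p = 0.120 and 0.0803). The lowest was BAT2, with -0.92 and -0.63 (adjusted p = 0.0918). Without the array of slide row 1, 0 of the 47 passed, and LYS2 and HIS4 had 0.88 and 0.72 on the array that was left.

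In glucose, too, the strains differed in few of these genes. Here 6 of the 47 were lower in the mutant, beside 3.54% of all tested genes, and 1 was higher, beside 3.5% (7.04% called in all). Centred on the spike-in transcripts, with the median of all genes at -0.12, 1 was lower and 0 were higher. Only 77 of all 5343 tested genes were then called, 30 of them higher. The median was -0.24. ARG3 had log2 ratios of -0.90 and -0.86, a mean of -0.88 ± 0.14 or 1.84 times lower in the mutant (adjusted p = 0.0125). HIS2 had -0.77 and -0.74 (-0.75 ± 0.10, adjusted p = 0.00799). Both genes had nearly the same ratio on each array. ARO9 had -0.57 and -0.66 (-0.61 ± 0.11, adjusted p = 0.0215), and ARG1 had -0.56 and -0.61 (-0.58 ± 0.12, adjusted p = 0.0301). LEU1 had -0.49 on both arrays (adjusted p = 0.0264), and ARO1 had -0.58 and -0.34 (-0.46 ± 0.11, adjusted p = 0.0415). All 7 arginine genes had means below 0, beside 2649 of all 5343 tested genes, though ARG2 was at 0.09 on slide row 2. ARO3 was the gene that was higher, with 0.31 and 0.70 (0.50 ± 0.12, adjusted p = 0.0424). Without either of the 2 arrays of this comparison 0 of the 47 were lower at the threshold, and ARO1 and ARO3 lost their call in all 8 cases of 1 array left out.

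**Figure D5:**
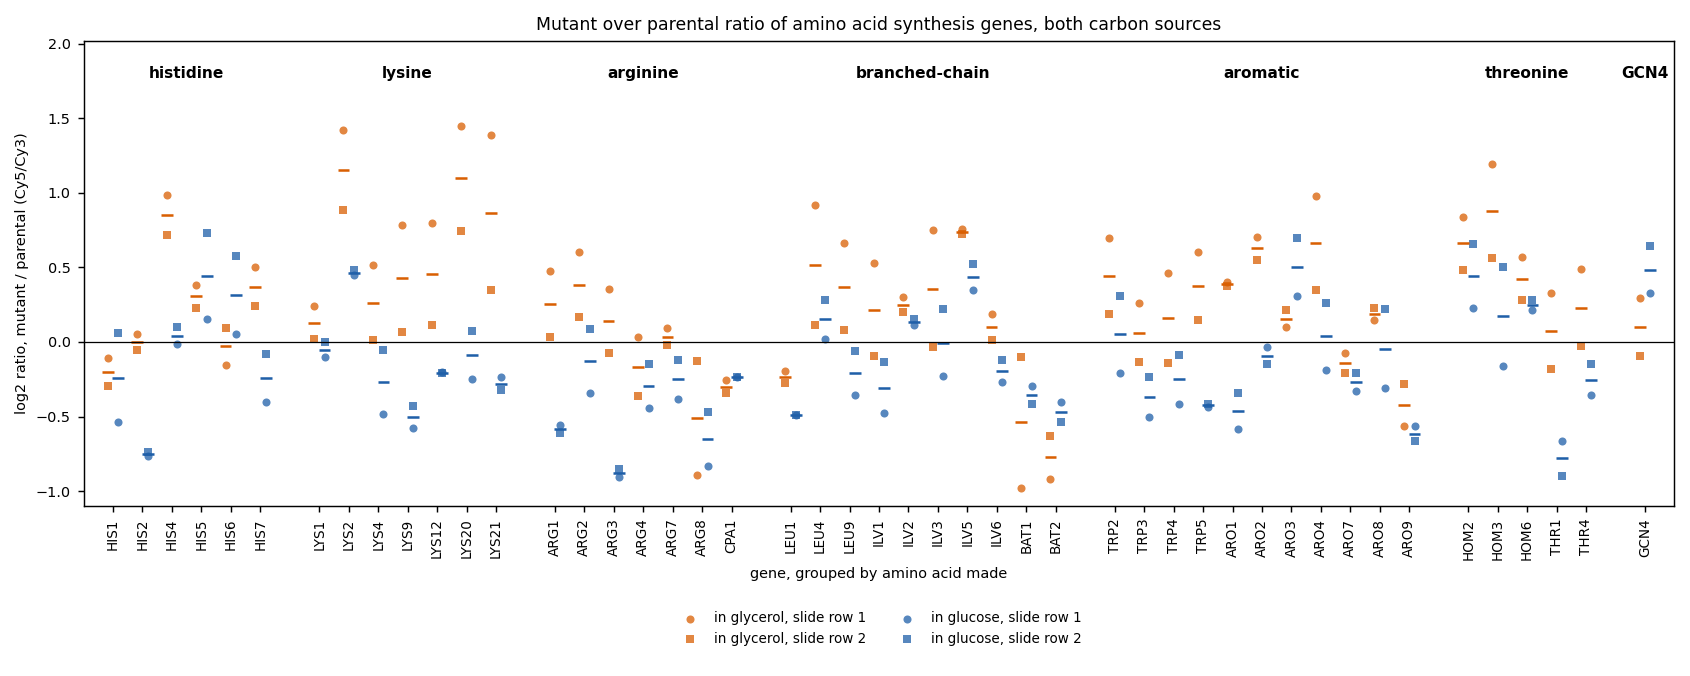
Log2 ratio of mutant over parental for each of the 47 genes on each array, in glycerol (orange) left of glucose (blue), with circles for slide row 1, squares for slide row 2 and bars for the mean. In glycerol the lysine genes lie above 0 (LYS2 at 1.15). In glucose the means of the arginine genes lie below 0 (ARG3 at -0.88), with ARG2 at 0.09 on slide row 2.

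Other genes of amino acid synthesis were listed because they complete these pathways or belong to neighbouring ones. Of 17 such genes 9 fell and 0 rose in the mutant (median -0.42), beside 21.9% of all tested genes that fell and 24.7% that rose. In the parental strain 12 fell and 0 rose (median -0.83), beside 30.5% and 31.4% of all tested genes. ARG5,6, whose product carries the acetylglutamate kinase and reductase between ARG2 and ARG8, had log2 ratios of -0.10 and -0.35 in the mutant, against -1.18 and -1.70 in the parental strain. Its difference of responses, 1.21 ± 0.21, passed the test (adjusted p = 0.0412). SER33, a phosphoglycerate dehydrogenase of serine synthesis, had -1.20 and -1.49 in the mutant, against -2.18 and -2.10 in the parental strain, and its difference of 0.79 ± 0.16 also passed (adjusted p = 0.0481). In both genes the strains did not overlap, and the parental ratio was the lower.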

How the data were processed

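RNA of 4 comparisons was hybridised on 8 arrays, 2 per comparison, and arrays were grouped by the labels. The deposited scanner files hold median intensity per spot and local background, processed intensity and the log10 ratio of Cy5 over Cy3, and per the file headers Agilent Feature Extraction 10.10.1.1 made them, with 0 or 1 flags for background, outliers and saturation. The authors' deposited table gives each gene a single value in each comparison with both arrays combined, taken here as log2 since its base is not given in the sources used here. The submitters' processing notes name limma. Its parental response column ran opposite to the scanner ratios (r = -0.951 across genes), so its sign was turned. It served for values only.

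Median signals were corrected with normexp (offset 50, which draws dim genes' ratios towards 0) and loess within arrays in R 4.3.3 with limma 3.58.1, and log2 Cy5/Cy3 was averaged over a gene's 2 spots. The filter left 5343 of 6256 genes, those whose spots were both well above background in all channels of some condition. Limma fitted 1 coefficient per comparison over all 8 arrays (4 residual degrees of freedom), with Benjamini-Hochberg adjustment over all 5343 genes and calls at 0.05. A ± is the SE of that fit. The number of arrays limits the precision, and without a dye swap a gene's dye effect stays in each ratio. The fit was tested on simulated data with independent noise on each array, so errors shared between arrays were not covered. Names come from RefSeq's table of the reference strain, which matched 5756 of the 6256 genes and all 47 described.

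The 47 genes and the other lists were chosen with earlier results of these data known. Genes given by array were GCN4, the lowest and highest of each amino acid in each strain's response, those called between strains, and 5 isoenzyme pairs, with some others chosen after their values were seen. Signal shared between probes of paralogs, promoter motifs and protein identity were not analysed here. One gene of the other lists is not reported here. The alternatives are given in the closing section.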

Additional observations from a re-analysis of the deposited data

Results flagged for a closer look

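ARO1, the multifunctional shikimate enzyme, is listed because the test of the difference between the strains' glycerol responses passed for it. The mutant minus parental difference was 1.01 on the log2 scale, with a mean of -0.59 ± 0.11 in the mutant and -1.60 ± 0.11 in the parental strain (SE, 2 arrays each, limma adjusted p = 0.0266). Both mutant arrays lay above both parental arrays. Over 16 alternatives the adjusted p lay between 1.37e-05 and 0.169, and 10 kept the call.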

How the results depend on the processing

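The counts of genes that fell in glycerol, 34 in the mutant and 40 in the parental strain, moved by less than 1.5 times in all alternatives run, with ranges over 1 array left out of 25 to 34 and 39 to 40, and the 2 genes that rose in the mutant stayed at 2. The 2 that rose in the parental strain became 1 with spike-in centring and 1 to 2 with an array left out. The parental mean of LEU4 turned to -0.061 with spike-in centring. In the authors' deposited table, which served for values only, LEU4 stood at 0.09 for the mutant and -0.14 for the parental strain. The strain comparisons were less stable. In glycerol, the 5 higher became 2 with Agilent's processed signals, 3 with no filter on dim genes, 41 with spike-in centring, 11 in the loop model (3 coefficients that add up around the comparisons) and 0 to 7 with an array left out, and the 0 lower became 3 in the loop model and 0 to 1 with an array left out. In glucose, the 6 lower became 2 with processed signals, 1 with spike-in centring, 11 in the loop model and 0 to 7 with an array left out, and the 1 higher became 0 with processed signals, offset 10, spike-in centring or the slide row as a replicate block, 3 in the loop model and 0 with any array left out. The difference of responses, with 1 higher, gave 2 with offset 10, 45 with spike-in centring, 20 in the loop model, 0 from the strain comparison arrays (an alternative chosen after seeing the data) and 0 to 7 with an array left out, the 7 without the mutant response array of slide row 2, and the 0 lower stayed at 0. Over all genes it made 100 calls, against 44 with processed signals, 43 with the replicate block, 1030 in the loop model and 4120 with spike-in centring, and the strains in glucose differed in 376 genes, against 968 in the loop model and 77 with spike-in centring. The strains in glycerol differed in 220 genes, against 732 in the loop model and 4573 with spike-in centring. The main fit and the loop model both treat arrays as independent, which shared extracts would break. The slide row pairs arrays only by position. As a replicate block it gained ARG8 (adjusted p = 0.0312) and lost ARO1 (0.0620) and ARO3 (0.0535) in glucose, lost LYS20 (0.0629) in glycerol, and changed no other call among the 47. Spike-in ratios were taken relative to the mean of the 8 arrays, since their nominal ratios were not used here. The cause of these changes was not tested. With 2 arrays per comparison, small differences between strains were not detectable.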

Other observations

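Genes of amino acid breakdown moved both ways in glycerol. Of 11 such genes 6 rose and 3 fell in the mutant (median log2 ratio of glycerol over glucose 0.77), beside 24.7% of all tested genes that rose and 21.9% that fell. In the parental strain 6 rose and 2 fell (median 0.68), beside 31.4% that rose and 30.5% that fell. The list was not tested against the synthesis genes. UGA2, the succinate semialdehyde dehydrogenase of the route that uses 4-aminobutyrate, had 2.05 and 1.91 in the mutant and 1.67 and 1.08 in the parental strain. GAD1, the glutamate decarboxylase that makes 4-aminobutyrate, had 1.14 and 2.48 in the mutant and 2.92 and 2.72 in the parental strain. PUT1, the proline oxidase of mitochondria, had 1.30 and 1.99 in the mutant and 1.54 and 0.85 in the parental strain. All 3 rose in both strains. CAR2, the ornithine transaminase of arginine breakdown, had 0.75 and 0.78 in the mutant, against 1.73 and 1.91 in the parental strain, and its difference of -1.06 ± 0.14 passed (limma adjusted p = 0.0243). ARO10, a decarboxylase of aromatic amino acid breakdown, and CHA1, the serine and threonine deaminase, fell in both strains, and CAR1, the arginase, fell in the mutant only as a call (-0.46 ± 0.16 in the mutant and 0.01 ± 0.16 in the parental strain, difference -0.47 ± 0.22, adjusted p = 0.267).

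Of 13 genes that regulate amino acid synthesis, 5 fell and 2 rose in the mutant (median -0.33), and 9 fell and 3 rose in the parental strain (median -0.79), beside the same shares of all tested genes. BAS1, an activator of histidine and purine genes, had -1.05 and -1.54 in the mutant, against -2.06 and -1.89 in the parental strain. LEU3, the regulator of branched-chain genes, had -0.49 and -0.62 in the mutant, against -1.33 and -1.11 in the parental strain. Both fell in both strains, with the mutant arrays above the parental ones. PHO2, the partner of BAS1, rose in both, with a mean of 0.69 ± 0.12 in the mutant and 0.76 ± 0.12 in the parental strain. LYS14, the activator of lysine genes, fell in the parental strain (-0.84 ± 0.12, adjusted p = 0.000401) and had -0.22 ± 0.12 in the mutant (adjusted p = 0.156). Of these 13 genes 0 passed in the difference of responses in limma, with 6 at an unadjusted p under 0.05, beside 1135 (21.2%) of all 5343 tested genes.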
